A study of Drosophila melanogaster with 24 samples.

Results

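Cytosolic ribosomal proteins bind the ribosomal RNAs and form with them the ribosome's large and small subunits. The set was chosen by name alone, as every gene of the count table whose FlyBase symbol begins with RpL or RpS, together with sta, the fly's small-subunit protein that is homologous to the laminin receptor precursor. It held 92 of the 17698 genes in the table. Of these, 51 carry large-subunit names, 38 are small-subunit genes with sta among them, and 3 (RpL7-like, RpL24-like and RpLP0-like) are named after a subunit protein but are homologues of yeast factors that assemble the large subunit. A further symbol of the set, RpS12, was not analysed here.

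RNA was sequenced from the fat body of Drosophila melanogaster larvae, the organ that stores fat and makes the larval serum proteins. All 6 groups carried the driver C855a-Gal4, which acts in epithelia; in the 4 tumour groups it drove UAS-scrib-RNAi, which lowers the cell polarity gene scrib so that wing discs grow into tumours, and in the 2 control groups UAS-control-RNAi. Tumour-bearing larvae were taken 4, 5, 8 and 11 days after egg laying and controls at 4 and 5 days, with 4 libraries in each group and the fat bodies of 50 larvae pooled in each library. Per the labels, larvae with tumours do not pupate and go on growing as giant larvae, so days 8 and 11 have no control of the same age, and the tumour's duration and the larva's age cannot be told apart there. The comparisons of 1 day with another share libraries with the comparisons of tumour with control, and each is given by its own values.

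Ribosomal proteins are made in near-equal numbers, because each ribosome holds 1 copy of almost every one, and their messenger RNAs are among the most abundant of a growing cell. In animals these messengers begin with a run of pyrimidines, the 5' TOP motif, through which the TOR kinase and the La-related protein Larp control their translation, while Myc raises the synthesis of ribosome components at the level of transcription. In Drosophila several ribosomal proteins have a second gene copy, which is often used mainly in the testis or the ovary, and loss of 1 copy of many of the genes gives the slow-growing Minute flies.

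Each library held between 16074877 and 23352151 counts. Of the 92 genes, 84 passed the low-count filter (48 large-subunit, 34 small-subunit and 2 assembly-factor homologues), among 8707 genes tested. The label names adipocytes, and the 10 fat body markers held between 409488 and 468129.5 of 1000000 counts in the libraries of control day 4, control day 5 and tumour day 4. They held 303236 to 390009 at tumour day 5 and 86777 to 115690.4 at tumour day 11. The near-equal sums of the control and tumour day 4 libraries hid opposite moves of single markers. Fbp1 had 539143, 34205, 958892 and 946021 counts in control day 4 and 4929197, 3853086, 4381915 and 4623132 in control day 5. With tumours it had 4380, 4405, 4375 and 8110 at day 4 and 18737, 66069, 50143 and 72854 at day 5. From day 4 to day 5 in controls, 7 of the 10 markers were called lower and 1 higher. Nor did the markers all move alike between tumour days 5 and 11. Lsp1alpha had 781018, 735604, 398901 and 360179 counts at tumour day 5 and 14766, 87209, 17724 and 38820 at tumour day 11. Lsp1beta, Lsp1gamma, Fbp2, FASN1, Desat1 and Adh also fell on average. apolpp rose from 380093, 295002, 301759 and 299697 to 433567, 404844, 508617 and 441242, and Fbp1 and Lsp2 also rose on average. Haemocyte markers went from a mean of 204 per 1000000 counts in control day 4 to 1297 in tumour day 11, and muscle markers from 136 to 434. Of the haemocyte markers, PPO1 and PPO2 were lower on average in tumour day 11, with 884, 903, 785 and 639 counts of PPO1 against 340, 339, 253 and 736. Of the muscle markers, bt had 1333, 1759, 1669 and 1673 counts in control day 4 and 8846, 5193, 7316 and 9816 in tumour day 11. The muscle genes sls and TpnC73F also rose, while Mhc, up, Mlc2, Act57B and wupA overlapped between these groups. Testis markers stood at 117.7 per 1000000 counts in replicate 1 of tumour day 5 against at most 13.6 in the other 23 libraries, and salivary gland markers at 1228 and 1360 per 1000000 counts in replicate 2 of control day 4 and replicate 3 of control day 5. The driver acts outside the fat body, and scrib itself lay between 35.3 and 48.4 CPM in the controls and between 27.9 and 45.4 CPM in the tumour groups, so these libraries do not check the knockdown in the discs. Levels are given as CPM, which are counts per 1000000 after TMM scaling of the library sizes, in the order of replicates 1 to 4. A change is a log2 fold change with its SE, fitted by edgeR with the quasi-likelihood test. A gene counts as called where its p, adjusted by Benjamini-Hochberg over all 8707 genes, is under 0.05.

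Counted together, the ribosomal protein genes took a larger part of the fat body's counts with tumours than without, at both ages. In control day 4 they took 8.19%, 8.78%, 7.02% and 7.56% of a library's counts, and in tumour day 4 8.91%, 9.17%, 10.64% and 8.85%. In control day 5 they took 5.39%, 5.90%, 6.23% and 5.53%, and in tumour day 5 10.30%, 11.39%, 11.55% and 11.49%. The tumour libraries lay above all control libraries of their day, with a small gap at day 4 and a ratio of means of 1.94 at day 5. The difference was 1.51 percentage points at day 4 and 5.42 at day 5, and each had an adjusted p of 0.0429 in a two-sided exact permutation test, adjusted over 6 pairs of groups (the smallest raw p that 4 against 4 libraries can give is 0.0286). In controls the share fell by 2.12 points from day 4 to day 5 (exact permutation test, adjusted p = 0.0429), with no overlap between the days. In bulk samples such as these, fewer cells of a type and less RNA per cell cannot be told apart.

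After day 5 the direction of the sum depended on what it was measured against. As a share of all counts it was 12.25 ± 0.41% at tumour day 8 and 12.61 ± 1.11% at tumour day 11, against 11.18 ± 0.59% at tumour day 5, so day 8 stood 1.07 points above day 5 (exact permutation test, adjusted p = 0.0429) while day 11 differed from day 8 by 0.357 points, less than the spread (adjusted p = 0.543, exact permutation test). Day 11 was not tested against day 5. The 20 most abundant other genes, led by larval serum proteins, held a mean of 45.6% of the counts at tumour day 5, 29.1% at day 8 and 22.3% at day 11. Without these genes in the total, the ribosomal protein share fell from 20.6% at day 5 to 17.3% at day 8 (a difference of -3.28 points, adjusted p = 0.0429, exact permutation test). The sum after TMM scaling was 116103 CPM at tumour day 5, 90416 at day 8 and 85183 at day 11, and its fall from day 5 to day 8 also had an adjusted p of 0.0429. The increases with tumours at days 4 and 5 had the same sign on all 3 scales.

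**Figure D1:**
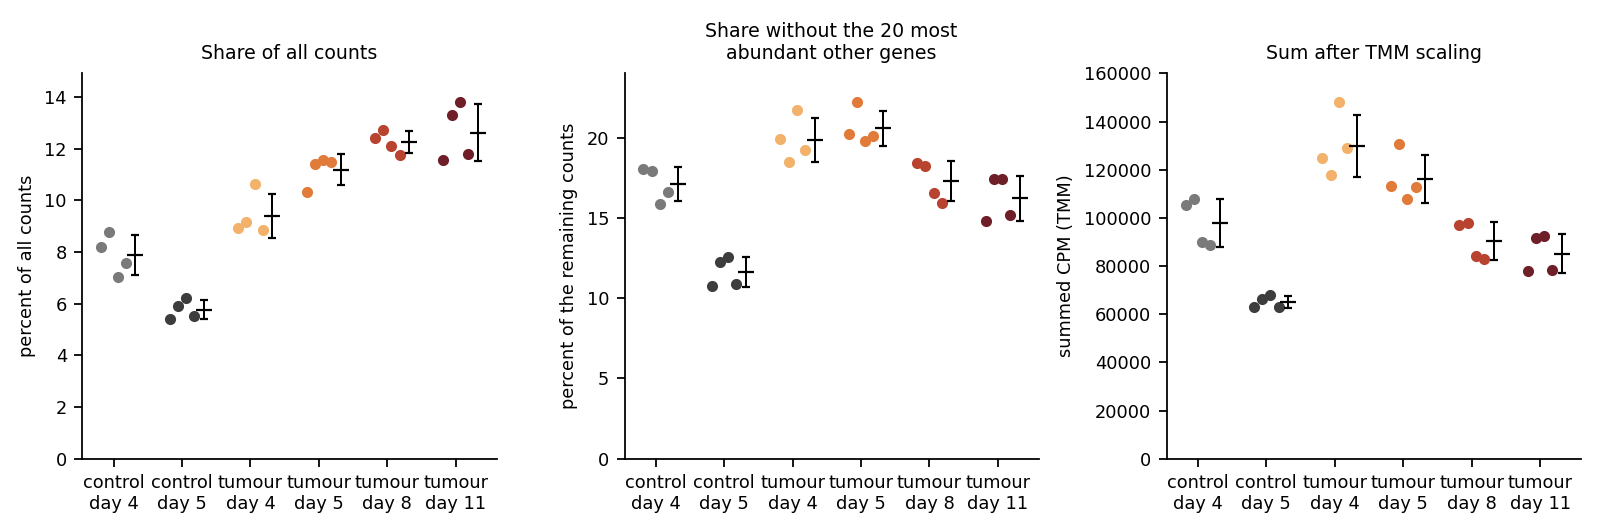
Summed ribosomal protein counts of each library (points) with the mean and SD of 4 libraries (bars), as percent of all counts, as percent of the counts left without the 20 most abundant other genes, and as CPM after TMM scaling. At days 4 and 5 the tumour libraries lie above the control libraries of the same day in all 3 panels, while tumour day 8 lies above tumour day 5 in the first panel and below it in the other 2.

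At day 4, 78 of the 84 tested genes were higher with tumours and 0 lower, where 14.6% of all tested genes were called higher and 10.5% lower. At an unadjusted p under 0.05, 81 were higher and 0 lower, and DESeq2 called 78 and 0. Their median log2 fold change was 0.42, against 0.01 for all genes tested. Of the large-subunit genes 46 of 48 were called, with a median of 0.43, and of the small-subunit genes 32 of 34, with a median of 0.40. The changes were close together: among the 80 subunit genes left after RpS5b, RpS15Ab and the 2 assembly-factor homologues are set aside, 78 lay within 0.2 of the median. When libraries were scaled by their totals only, the median of all genes moved to -0.14 and 47 of the 84 were called higher, and with only the 2 groups in the model 42 were.

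The 2 largest increases at day 4 were those of genes with very short messengers. RpL41, which encodes the smallest protein of the large subunit, was at 1304, 1306, 893 and 986 CPM in control day 4 and at 1856, 2029.8, 2241 and 1718 in tumour day 4. RpL39, another very small large-subunit protein, was at 255, 223, 152 and 197 against 335, 354, 395 and 323. In both genes every tumour library lay above every control library. The changes were 0.81 ± 0.15 for RpL41 (adjusted p = 0.000525) and 0.77 ± 0.20 for RpL39 (adjusted p = 0.00779), followed by 0.62 ± 0.10 for RpL38 and 0.59 ± 0.11 for RpL29, both large-subunit proteins. The 3 genes with at most 400 bases of exon (RpL29, RpL39 and RpL41) had a median of 0.77, against 0.42 for the other 77 subunit genes. Across the 80 genes the change relative to the summed set correlated with exon length at a Spearman rho of -0.33 at day 4 and 0.39 at day 5, a description over genes that share their libraries.

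At day 4, 6 genes were not called. RpL22, a large-subunit protein that in Drosophila carries a histone H1-like extension, was at 1009.7, 1138, 859 and 835 in control day 4 and 1072, 955, 1398 and 1351 in tumour day 4, groups that overlapped (0.31 ± 0.12, adjusted p = 0.0701). RpL4, a large-subunit protein that lines the exit tunnel, had 0.26 ± 0.10 (adjusted p = 0.0765). The others were RpS15Ab, the minor copy of RpS15Aa (0.28 ± 0.13), the homologues RpL24-like (0.07 ± 0.09) and RpLP0-like (-0.09 ± 0.26), and the minor copy RpS5b (-0.33 ± 1.12). In the annotation used, 31 of the 92 genes, RpL22 among them, share exon bases with another gene, and 25 do so with a gene on the other strand. The sources used here do not say whether strand was used in the counting. The counts of these genes can therefore hold reads of the neighbour. RpL22 shares 377 bases with lncRNA:CR42491 on its own strand, which the use of strand would not separate. The shared stretches ran from 3 bases (RpL29) to 1771 (RpL7-like), so some of these genes can hold few such reads.

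At day 5, 82 of the 84 genes were higher with tumours and 0 lower, both by edgeR, also unadjusted, and by DESeq2. Of all tested genes 54.9% were called, 26.7% higher and 28.2% lower. The median was 0.81, against 0.03 for all genes, and 71 of the 80 subunit genes lay within 0.2 of it. All 48 large-subunit genes were called, and 33 of the 34 small-subunit genes. With library totals only the same number of genes, 82, was called higher, and the median was 0.93 against 0.16 for all genes. Markers of other cell types moved in the same comparison: 6 of 9 haemocyte markers were higher and 0 lower (median 0.95), and their sum was 113.6 to 188 per 1000000 counts in controls and 315 to 460.3 with tumours. Of 8 muscle markers 5 were higher and 0 lower (median 1.21), with sums of 75.6 to 113 and 144 to 352. The sum of 352 was that of replicate 3 of tumour day 5, where Mhc had 1084 counts, against 105, 77 and 90 in replicates 1, 2 and 4. Act57B had 88, 76, 1095 and 106 counts in tumour day 5 and 166, 176, 103 and 103 in control day 5. The muscle genes up, Mlc2 and wupA were also highest in that replicate. In bt and TpnC73F every tumour library lay above every control library. At day 4, 3 haemocyte markers and 1 muscle marker were higher. None of these markers was at 0 in a control library. Their part in the change of the ribosomal protein genes was not tested.

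RpL22 led the subunit genes of ordinary level at day 5. It was at 635, 642, 597 and 549.9 CPM in control day 5 and at 1295, 1539.7, 1311 and 1331 in tumour day 5, an increase of 1.18 ± 0.13 (adjusted p = 7.04e-08). The stalk protein RpLP0, which anchors the flexible arm that recruits the elongation factors, was at 1254, 1363, 1323 and 1212 against 2783, 3009.6, 2569 and 2718 (1.10 ± 0.09, adjusted p = 1.03e-09). In neither gene did the groups overlap, and the lowest tumour library held more than every control library of either day. Similar changes were those of sta (1.10 ± 0.12), RpL4 (1.08 ± 0.10) and RpL39 (1.15 ± 0.20). At the low end of the called genes, RpS29, a small zinc-binding small-subunit protein, was at 810.1, 859, 837 and 864 against 1119, 1219, 1096 and 1161 (0.45 ± 0.07), and RpL24-like changed by 0.50 ± 0.09. RpS15Ab (0.07 ± 0.13, adjusted p = 0.654) and RpLP0-like (0.02 ± 0.26, adjusted p = 0.956) were the genes not called.

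**Figure D2:**
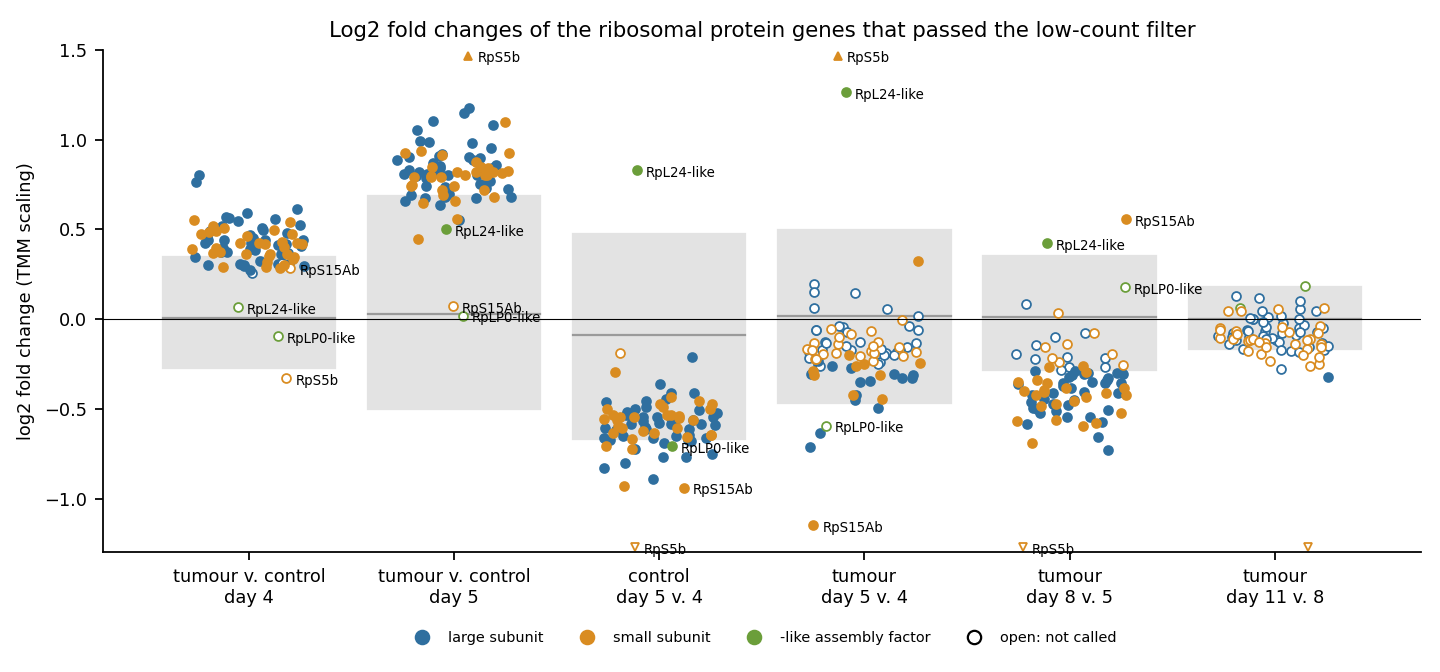
Log2 fold changes of the 84 tested ribosomal protein genes in 6 comparisons after TMM scaling; filled points were called, open points were not, triangles lie beyond the axis, and grey boxes with a line give the interquartile range and the median of all 8707 genes. The genes form a tight group above 0 in both comparisons with controls, with RpL24-like, RpLP0-like, RpS15Ab and RpS5b apart from it in several columns.

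Genes of the stalk proteins and ubiquitin fusions also rose with tumours at both days, though RpLP0 rose less than most genes of the set at day 4 and more than most at day 5. The acidic stalk proteins RpLP1 and RpLP2 rose by 0.30 and 0.42 at day 4 and by 0.73 and 0.73 at day 5, while RpLP0 rose by 0.27 and then 1.10. RpL40 and RpS27A, whose proteins are made as fusions with ubiquitin, rose by 0.30 and 0.49 at day 4 and by 0.75 and 0.74 at day 5. Of the main copies of genes with a copy or a -like gene, RpL7, RpL10Ab, RpL24, RpL37-1, RpS5a, RpS10b, RpS15Aa, RpS19a and RpS28b were called at both days. Their changes ran from 0.33 (RpL7) to 0.54 (RpS15Aa) at day 4 and from 0.68 (RpL37-1) to 0.98 (RpL24) at day 5. RpL22 and RpLP0, also main copies, lay below these ranges at day 4, where RpL22 was not called, and above them at day 5. RpS14a and RpL34b are given below with their copies.

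The tumour effect was larger at day 5 than at day 4 in 43 of the 84 genes by the test of the difference itself, and smaller in 0, where 28.8% of all tested genes were called and 12.1% had a larger effect. At an unadjusted p under 0.05 the counts were 60 and 0, and by DESeq2 also 60 and 0. The median difference was 0.38, against 0.00 for all genes tested. RpL22 (0.86 ± 0.18, adjusted p = 0.000785), RpLP0 (0.83 ± 0.12, adjusted p = 3.09e-05), RpL4 (0.82 ± 0.15) and sta (0.70 ± 0.16) had large differences, while RpL41 (0.01 ± 0.22, adjusted p = 0.983) and RpL29 (-0.04 ± 0.16) had differences near 0. The count was 79 with library totals only, and 9 without the 5 libraries that held over 200 gut marker counts per 1000000, 3 of which belong to day 5 (replicate 1 of the controls and replicates 1 and 2 with tumours). In each of these 5 libraries most counts of the 11 gut markers were those of Jon65Aiii and Jon65Aiv, 2 protease genes. In replicate 1 of tumour day 5 they had 2304 and 4902 of 7252 counts.

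In controls, 81 of the 84 genes fell from day 4 to day 5 and 1 rose, where 55.0% of all tested genes were called, 29.2% lower. The median was -0.58, against -0.09 for all genes, and with library totals only 77 fell. RpS2, a small-subunit protein at the entry of the messenger channel, was at 1994, 2135, 1821 and 1791 CPM in control day 4 and at 967, 1013, 1166 and 920.0 in control day 5, and fell most of all called genes but RpS15Ab (-0.93 ± 0.10, adjusted p = 1.54e-07). RpL5, which binds the 5S ribosomal RNA together with RpL11, changed least among the called genes, from 2213, 2198, 1915 and 1869 to 1712, 1855, 1807 and 1712 (-0.21 ± 0.09, adjusted p = 0.0464), and its call was lost under 13 of the 18 alternatives run. RpS14b was not called (-0.19 ± 0.11), nor was RpS5b. The gene that rose was RpL24-like, at 34.9, 35.6, 33.5 and 30.7 against 57.5, 60.4, 64.9 and 56.5 (0.83 ± 0.09, adjusted p = 9.64e-08). The sum of the set after TMM scaling was 98012 CPM in control day 4, 65097 in control day 5, 129853 in tumour day 4 and 116103 in tumour day 5.

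From day 4 to day 5 with tumours, 26 genes were lower and 3 higher after TMM scaling, against 24.5% of all tested genes called lower and 19.6% higher. With library totals only 48 were higher and 1 lower, and the median of all genes moved from 0.02 to 0.43, so neither direction held on both scales. The 3 genes called higher were RpL24-like (1.26 ± 0.09), RpS14b (0.32 ± 0.11) and RpS5b, and among the lowest were RpS15Ab (-1.15 ± 0.13), RpL41 (-0.71 ± 0.15) and RpL34a (-0.64 ± 0.10). The number called lower lay between 8 and 41 when single libraries were left out: it was 10 without replicate 3 of tumour day 4, and 17, 41 and 8 without replicates 1, 2 and 3 of tumour day 5.

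From day 5 to day 8 with tumours, 61 genes were lower and 2 higher after TMM scaling, where 14.0% of all tested genes were called lower, but with library totals only 22 were higher and 1 lower, and 44 of the 63 called genes took the opposite sign. The median was -0.36 on the first scale, with all genes at 0.01, and 0.13 on the second, with all genes at 0.50. The ribosomal protein genes thus lay below the median of all genes. A change of scaling shifts all genes alike, so it cannot alter this place and does not test it. RpL7A, a large-subunit protein, was at 2633, 3134, 2547 and 2665 CPM at tumour day 5 and 1839.7, 1799, 1521 and 1462 at tumour day 8, and RpS3A, a small-subunit protein, at 1429, 1694, 1413 and 1449 against 997, 960.3, 862 and 886. Neither pair of groups overlapped, and the changes were -0.73 ± 0.10 and -0.69 ± 0.10. RpL5 (0.08 ± 0.09, adjusted p = 0.516) and RpS29 (0.04 ± 0.07, adjusted p = 0.758) were not called, although both were called higher with library totals only, and RpL11, RpL17, RpS16, RpS23 and RpL41 were also among those not called; their changes lay between -0.28 and -0.24. The genes called higher were RpL24-like (0.42 ± 0.09) and RpS15Ab (0.56 ± 0.13, adjusted p = 0.0027). Without the libraries rich in gut markers 23 genes were lower; fat body markers went from a mean of 348026 to 169809 per 1000000 counts and haemocyte markers from 381 to 649 over the same days, and their part in these changes was not tested.

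Between days 8 and 11 with tumours, 1 gene was called lower and none higher by edgeR, where 1.62% of all tested genes were called lower and 1.72% higher. At an unadjusted p under 0.05 there were 4 lower and 0 higher, and DESeq2 called 1 lower. The gene was RpLP0, at 2335, 2338, 1955 and 2036 CPM at day 8 and 1657, 1857, 1789 and 1629 at day 11 (-0.32 ± 0.09, adjusted p = 0.0454), and it was not called in 6 of the 8 fits that left out a library of these days. Apart from RpS5b, the outermost other changes were those of RpL39 (-0.28 ± 0.20), RpL38 (0.12 ± 0.10), RpL41 (0.13 ± 0.15) and RpLP0-like (0.19 ± 0.26).

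A second fit took the summed counts of the 92 genes as the library size, so that it compared the genes with each other and did not depend on the rest of the library. At day 4 it called 1 gene higher and 1 lower with tumours, against 5.21% and 37.6% of all tested genes, and the other 82 were not called. RpL41 was higher, at 152 against 114 of every 10000 ribosomal protein counts (0.41 ± 0.12, adjusted p = 0.00776). RpL24-like was lower, at 2.72 against 3.45 (-0.34 ± 0.07, adjusted p = 0.00125), a call lost with only the 2 groups in the model. Relative to the set, the median of all tested genes was -0.40 with tumours at day 4, -0.80 at day 5 and -0.42 for the difference of the effects. From day 4 to day 5 this median was 0.49 in controls and 0.18 with tumours, and from day 5 to day 8 with tumours it was 0.37.

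At day 5 the same fit called 8 genes higher and 12 lower with tumours, against 8.53% and 60.8% of all tested genes (69.3% in both directions). RpL22 was at 101, 96.6, 87.7 and 87.6 per 10000 in control day 5 and 114, 118, 122 and 118 in tumour day 5 (0.34 ± 0.09), and RpLP0 at 199, 205, 194 and 193 against 246, 231, 239 and 240.5 (0.27 ± 0.07). RpS29 was at 128, 129, 123 and 138 against 98.8, 93.4, 102 and 103 (-0.39 ± 0.08, adjusted p = 0.000258). In each of these 3 genes the groups did not overlap. RpL4 (0.25 ± 0.07) and sta (0.26 ± 0.07) also took a larger part, while RpL29 (-0.28 ± 0.10), RpLP0-like (-0.79 ± 0.26) and RpS15Ab (-0.76 ± 0.13, adjusted p = 2.09e-05) took a smaller one. The median of all tested genes on this scale was -0.80, near the values of RpLP0-like and RpS15Ab. On the CPM scale these 2 genes changed by 0.02 and 0.07 and were not called. The call of RpLP0-like rests on replicate 3 of control day 5: without it the change within the set was -0.37 (adjusted p = 0.131), and on the CPM scale 0.47 (adjusted p = 0.0621) in place of 0.02. The tumour effect on the part of the set differed between the days in 12 genes, with RpL22 (0.43 ± 0.12), RpLP0 (0.40 ± 0.10) and RpL4 (0.40 ± 0.10) larger at day 5 and RpS15Ab (-0.62 ± 0.18), RpL29 (-0.47 ± 0.14) and RpL41 (-0.44 ± 0.17) smaller, where 38.6% of all tested genes were called, 5.11% larger and 33.5% smaller.

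Within the set, the plainest change over the days was that of RpL24-like, the fly homologue of the yeast factor Rlp24. Rlp24 joins the nuclear precursor of the large subunit and is replaced by RpL24 in the cytoplasm. Of every 10000 ribosomal protein counts RpL24-like took 3.31, 3.3, 3.73 and 3.45 in control day 4 and 9.12, 9.08, 9.54 and 8.99 in control day 5. With tumours it took 2.86, 2.59, 2.66 and 2.77 at day 4 and 7.18, 7.19, 7.55 and 7.32 at day 5. It went on to 12.4, 12.4, 12.7 and 12.8 at day 8 and 13.4, 13.4, 14.1 and 14.9 at day 11. No 2 of the 6 groups overlapped: the order from low to high was tumour day 4, control day 4, tumour day 5, control day 5, tumour day 8 and tumour day 11. Relative to the set it rose from day 4 to day 5 by 1.41 ± 0.08 in controls (adjusted p = 5.82e-12) and by 1.43 ± 0.08 with tumours (adjusted p = 3.19e-11), and from day 5 to day 8 by 0.78 ± 0.07 (adjusted p = 1.03e-07), while the step to day 11 was 0.15 ± 0.07 and was not called (adjusted p = 0.402). At both ages it took a smaller part with tumours than in controls, by -0.34 ± 0.07 and -0.33 ± 0.07. Neither fall was larger than the median of all tested genes relative to the set, which was -0.40 at day 4 and -0.80 at day 5. On the CPM scale its changes with tumours were 0.07 (not called) and 0.50 (called higher). RpL24 itself moved with the other subunit genes, so that RpL24-like went from 4.13% of the counts of the pair in control day 4 to 11.9% in control day 5, and from 3.16% in tumour day 4 to 15.8% in tumour day 11.

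RpL5 also took a larger part of the set on later days, of which days 8 and 11 were sampled with tumours only. It took 209.8, 204, 213 and 210.5 per 10000 in control day 4, 271, 279, 266 and 273 in control day 5 and 261, 272, 264 and 267 in tumour day 5. At tumour day 8 it took 355, 357, 355 and 384, and at tumour day 11 420.3, 407, 399.8 and 426, above every library of the other groups. The rise from day 4 to day 5 in controls was 0.38 ± 0.07, and that from day 5 to day 8 with tumours 0.45 ± 0.07 (adjusted p = 8.37e-05). Tumour and control libraries of the same day did not differ in this part beyond their spread (0.04 ± 0.07 at day 4 and -0.03 ± 0.07 at day 5).

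RpL7A went the other way, from 232, 240.1, 237 and 236 per 10000 at tumour day 5 to 189.7, 184, 181 and 176 at day 8 and 174, 176, 179 and 169.8 at day 11 (-0.37 ± 0.07 for the first step, adjusted p = 0.000249). RpS3A (-0.33 ± 0.08) and RpL10, which joins the large subunit late in its assembly (-0.30 ± 0.07), fell within the set as well from day 5 to day 8, whereas RpS29 (0.40 ± 0.08) and RpS15Ab (0.92 ± 0.13) rose. In that step 9 genes were higher and 8 lower within the set, against 33.2% and 4.28% of all tested genes. In controls from day 4 to day 5 the numbers were 5 and 8, against 47.2% and 9.26%, and with tumours from day 4 to day 5 they were 9 and 9, against 23.3% and 17.0% (40.3% in all). From day 8 to day 11 none of the 84 was called in either direction by edgeR, where 2.01% of all tested genes were (1.58% higher and 0.425% lower), and 4 were higher and 4 lower at an unadjusted p under 0.05; DESeq2 was not run relative to the set.

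**Figure D3:**
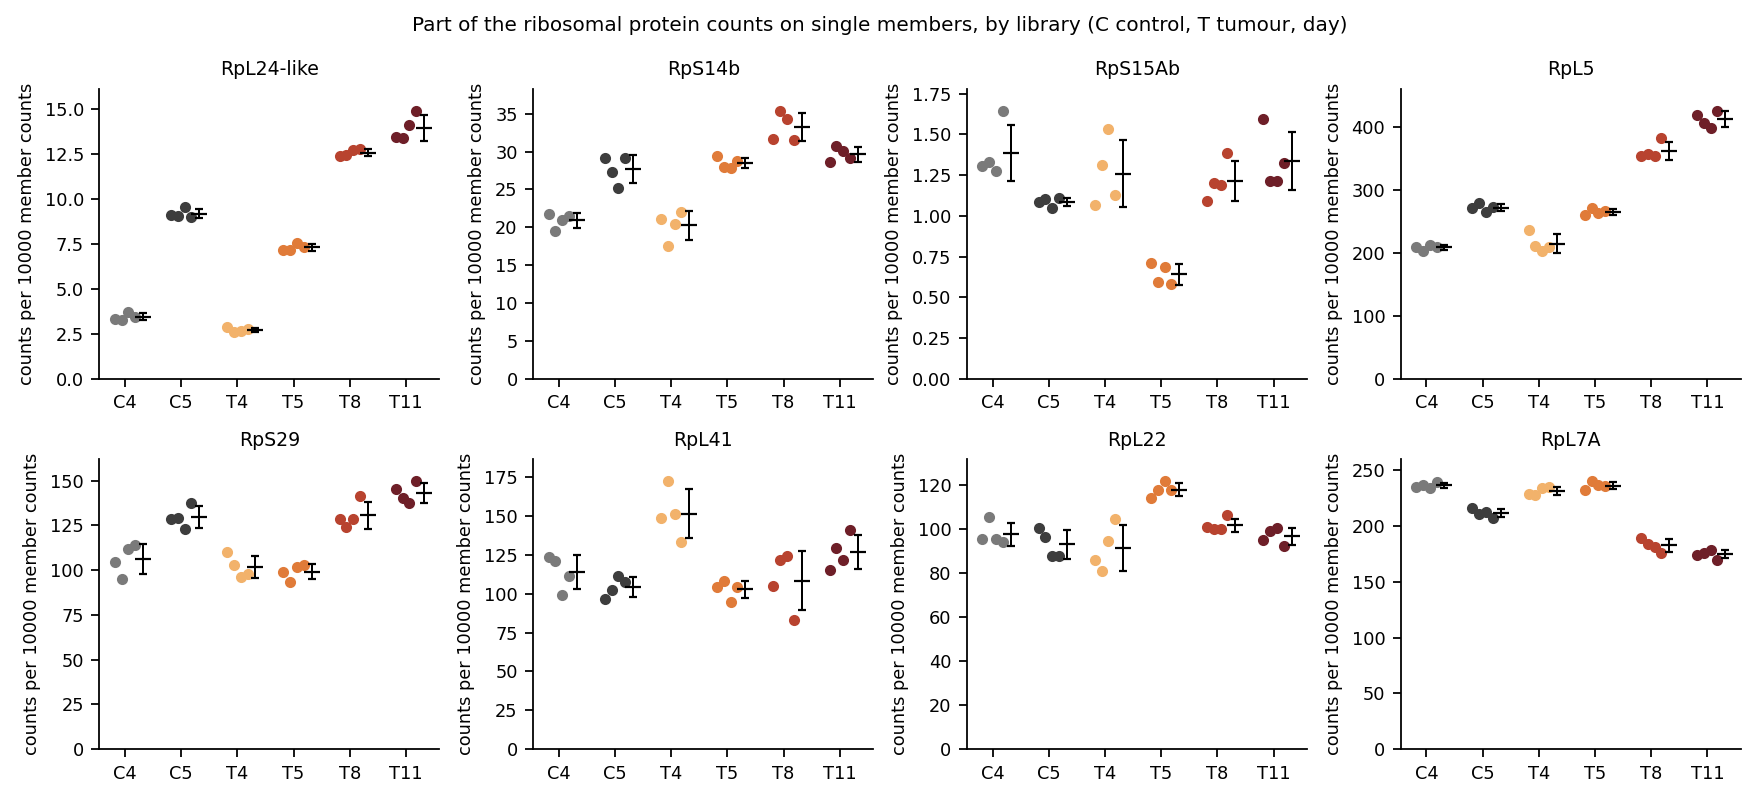
Counts of 8 genes per 10000 ribosomal protein counts in each library (points), with the mean and SD of 4 libraries (bars), for controls of days 4 and 5 (C4, C5) and tumour-bearing larvae of days 4, 5, 8 and 11 (T4 to T11). RpL24-like goes from a mean of 2.72 in tumour day 4 to between 13.4 and 14.9 in tumour day 11, RpL5 is highest and RpL7A lowest at tumour day 11, and RpS15Ab is lowest at tumour day 5.

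The balance of the 2 subunits moved little. Large-subunit genes held 60.4 ± 0.19% of the ribosomal protein counts in control day 4, 60.1 ± 0.11% in control day 5, 60.6 ± 0.16% in tumour day 4, 61.1 ± 0.14% in tumour day 5, 61.5 ± 0.12% in tumour day 8 and 62.1 ± 0.16% in tumour day 11, as mean ± SD of 4 libraries. These shares are given as a description, without a test. Per kilobase of exon, the mean level of the 80 subunit genes ranged from 201 CPM (RpL34a) to 3657 CPM (RpL41), with a median of 1239, and the next lowest were RpS14b at 428 and RpL38 at 438.

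Among the duplicated genes, 3 pairs had both copies in use in the fat body. RpS14a and RpS14b lie on the X chromosome and encode the same small-subunit protein, so reads can be split between them in ways the counts do not show. RpS14b held 18.05 ± 0.69% of the pair's counts in control day 4 and 17.6 ± 1.34% in tumour day 4. It held 23.3 ± 2.04% in control day 5, 24.03 ± 1.07% in tumour day 5, and 27.5 ± 1.54% and 27.6 ± 0.66% in tumour days 8 and 11. The day 5 libraries of either genotype lay above those of day 4, and tumour and control of the same day overlapped. Relative to the set RpS14b rose from day 4 to day 5 in controls (0.40 ± 0.09) and with tumours (0.49 ± 0.09), and on the CPM scale both copies rose with tumours, by 0.40 and 0.37 at day 4 and by 0.82 and 0.88 at day 5.

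RpL34a, the lesser of the 2 RpL34 copies, went the other way from day 4 to day 5. It held 18.1 ± 0.92% of the pair's counts in control day 4 and 17.1 ± 1.47% in tumour day 4, against 15.2 ± 0.93% in control day 5 and 14.5 ± 0.73% in tumour day 5. At tumour day 8 it held 16.2 ± 0.29%, with every library above those of tumour day 5, and at tumour day 11 15.3 ± 0.57%. Relative to the set it fell over this day in controls (-0.31 ± 0.09) and with tumours (-0.47 ± 0.09). With tumours both copies rose, RpL34a by 0.40 and 0.66 and RpL34b by 0.49 and 0.74 at days 4 and 5. RpS15Ab, the minor copy of RpS15Aa, was at 13.8, 14.3, 11.5 and 14.6 CPM in control day 4, 6.84, 7.32, 7.14 and 6.95 in control day 5 and 8.05, 7.78, 7.36 and 6.55 in tumour day 5. It was the lesser copy everywhere, at 1.43% of the pair's counts in control day 4, 1.12% in control day 5, 1.17% in tumour day 4, 0.624% in tumour day 5, 1.35% in tumour day 8 and 1.55% in tumour day 11. Its day 5 libraries were thus close to each other with and without tumours, while RpS15Aa rose by 0.93.

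RpLP0-like is the fly homologue of the yeast assembly factor Mrt4. It varied widely between libraries within control day 4, control day 5 and tumour day 4, and less within the later tumour groups. It was at 16.01, 26.7, 21.5 and 18.7 CPM in control day 4, 8.96, 9.92, 22.9 and 8.98 in control day 5, 12.5, 26.8, 24.4 and 14.00 in tumour day 4 and 13.6, 12.01, 12.2 and 13.8 in tumour day 5. The highest values of the control groups were those of replicate 2 at day 4 and replicate 3 at day 5, the libraries with salivary gland markers at 1228 and 1360 per 1000000 counts, in which the 37 ribosome biogenesis genes summed to 1383 and 1309 per 1000000 counts against 542.3 to 732 in the other 6 control libraries. In those 6 libraries salivary gland markers lay at or below 222 per 1000000 counts. One of them, replicate 3 of control day 4, held RpLP0-like at 21.5 CPM with these markers at 4.01 per 1000000 counts. In tumour day 4, replicates 2 and 3, with RpLP0-like at 26.8 and 24.4 CPM, held 41.8 and 0.490 salivary gland marker counts per 1000000. Replicates 1 and 4, at 12.5 and 14.00 CPM, held 2.61 and 0.571. The part of salivary gland RNA in the level of RpLP0-like was not tested.

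Another 9 genes of the set were hardly detected. RpL7-like had 0 counts in all 24 libraries. By counting error alone this would allow up to 0.00663 per 1000000 counts over their 452272952 counts (3 counts of the total). However, 1771 of its 1793 exon bases are shared with CG34164 in the annotation used, and how shared reads were counted is not given. The 0 counts therefore set no limit on its level. RpS28a had 1 count in all and RpS28-like 7. The other 6 (RpL10Aa, RpL22-like, RpL37-2, RpS5b, RpS10a and RpS19b), minor copies of which most are known in Drosophila from the germ line, had 33 to 338 counts in all.

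Most counts of these 6 genes came from a single library. Replicate 1 of tumour day 5 held 38 of 41 counts of RpL10Aa, 191 of 205 of RpL22-like, 50 of 60 of RpL37-2, 26 of 33 of RpS10a, 101 of 155 of RpS19b and 173 of 338 of RpS5b. Together they had 579 counts in that library, 78 in replicate 4 of tumour day 8 and at most 27 in any of the other 22. The same library was highest for 16 of the 17 testis markers, whose sum was 2555 counts there against 32 to 252 in the other 23, with 252 in replicate 4 of tumour day 8. Of the 17 markers, 7 were at 0 in 12 or more of the other 23 libraries. The part of testis RNA in these counts was not tested.

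RpS5b, the copy of RpS5a that is abundant in the ovary, was the only one of the 6 to pass the low-count filter. It passed through tumour libraries alone, with 173, 6, 18 and 2 counts at tumour day 5 and 18, 21, 2 and 45 at tumour day 8. Control libraries held 0 to 5 counts each. Because the filter was met only in groups where RpS5b is high, its calls are given as a description and are no separate support. In control day 5 it had 3 counts and in tumour day 5 199, a ratio of 60.3 (95% exact interval 20.4 to 295, counting error only), and its CPM in tumour day 5 were 8.76, 0.403, 0.933 and 0.109. Without replicate 1 of tumour day 5 there were 26 counts against 3, a ratio of 10.8 (3.32 to 56.0), and the call at day 5 remained at an adjusted p of 0.0118 by edgeR, but it was lost without the libraries rich in gut markers (adjusted p = 0.0678). Its rise from day 4 to day 5 with tumours (adjusted p = 0.00809) was lost without that library (adjusted p = 0.287), and so was its larger tumour effect at day 5 (adjusted p = 0.0555). RpS5b never held more than 0.623% of the counts of the pair, and RpS5a rose by 0.42 at day 4 and 0.93 at day 5.

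**Figure D4:**
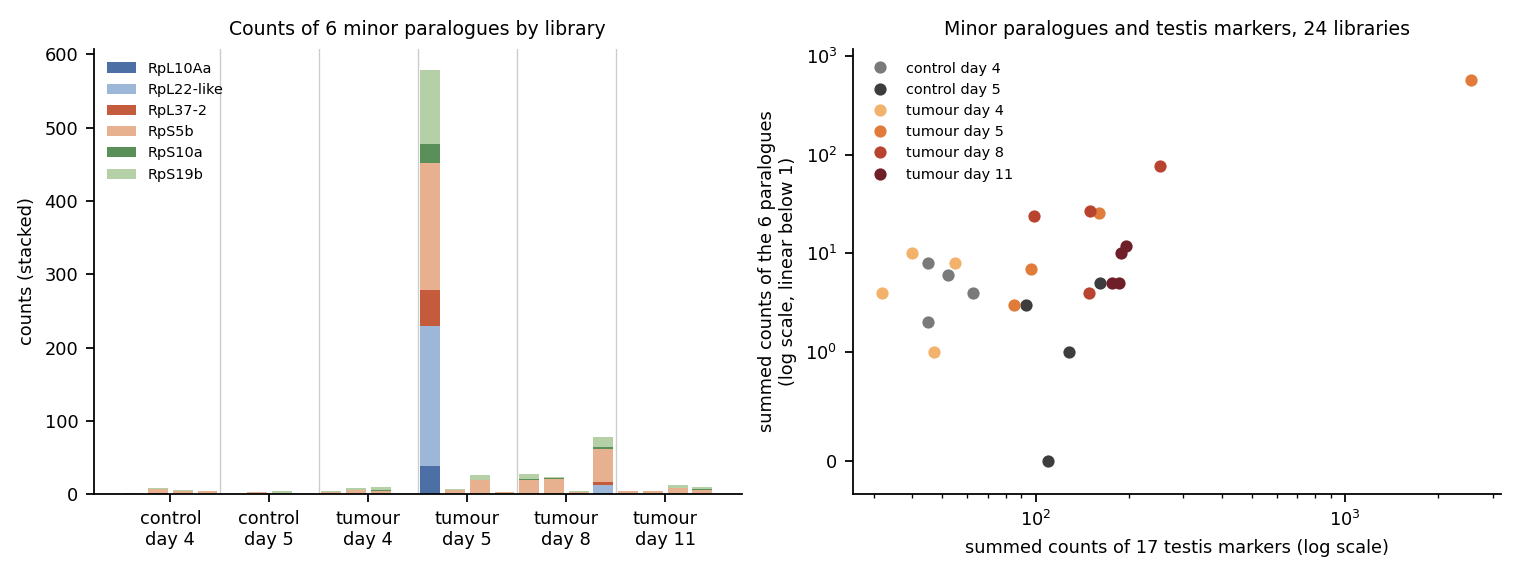
Left, stacked counts of 6 minor paralogues in each of the 24 libraries; right, their sum against the summed counts of 17 testis markers, both on log scales (the vertical one is linear below 1). Replicate 1 of tumour day 5 stands apart with 579 and 2555 counts, followed by replicate 4 of tumour day 8 with 78 and 252.

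Genes that work with the ribosomal proteins were listed beside them and are given by their counts. Of 10 partners whose messengers are translated or used together with theirs (elongation factors, the nascent chain complex, Rack1 and the poly(A)-binding protein), 4 rose with tumours at day 4 (median 0.22) and 8 at day 5 (median 0.93), and 0 fell by edgeR or DESeq2. Of all tested genes 14.6% and 26.7% were called higher, with medians of 0.01 and 0.03. The elongation factors eEF1gamma (1.02 ± 0.08) and eEF2 (1.02 ± 0.08), which feed transfer RNAs to the ribosome and move it along, and the nascent chain genes bic (0.99 ± 0.11) and Nacalpha (0.98 ± 0.08) changed most at day 5. In controls 8 of the 10 fell from day 4 to day 5 (median -0.50, against -0.09 for all genes, of which 29.2% fell), among them eEF1delta (-0.89 ± 0.19) and eEF1gamma (-0.72 ± 0.08). With library totals only 1 rose at day 4 and 8 at day 5, 8 fell in controls, and with only the 2 groups in the model 1 rose at day 4. From day 5 to day 8 with tumours 4 were lower and 1 higher, but with library totals only 6 were higher and none lower.

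For the factors that build the ribosome, the counts depended on 2 control libraries. Of 37 ribosome biogenesis genes, 1 rose at day 4 (Non1, a GTPase of large-subunit assembly, 0.44 ± 0.15, lost with library totals only), with a median of -0.33, and 3 rose at day 5, with a median of 0.16, where 14.6% and 26.7% of all tested genes were called higher: Non1 (1.78 ± 0.16), Ns2 (1.06 ± 0.17), another nucleolar GTPase, and Nmd3 (0.88 ± 0.12), which takes the large subunit out of the nucleus. By edgeR after TMM scaling and by DESeq2 0 were lower at either day, and 1 was at day 4 with library totals only. Non1 was at 307, 292, 256 and 276 CPM in control day 5 and 903, 1070.3, 918 and 983 in tumour day 5. Without replicate 2 of control day 4 and replicate 3 of control day 5, those with the salivary gland markers, 28 of the 37 were higher at day 5 with a median of 0.78, where 27.1% of all genes tested in that setting were called higher. In controls 33 fell from day 4 to day 5 in place of 9, where 26.5% of all genes fell in that setting and 29.2% with all libraries. That setting was chosen after seeing the data, and the part of salivary gland RNA was not tested.

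Of 18 regulators of growth and translation, 7 rose with tumours at day 4 and 0 fell (3 rose with library totals only, and 0 with only the 2 groups in the model), 11 rose and 3 fell at day 5, and in controls 7 rose and 6 fell from day 4 to day 5. Of all tested genes 14.6% rose and 10.5% fell at day 4, 26.7% rose and 28.2% fell at day 5, and in controls 25.8% rose and 29.2% fell, so that the controls' counts were near the share over all genes. Thor, the 4E-BP repressor of translation that TOR inhibits, was at 151, 161, 134 and 62.6 CPM in control day 4 and 1152, 1032, 868 and 1134 in control day 5 (3.04 ± 0.28). With tumours it was at 280.0, 111, 326 and 340.2 at day 4 and 388, 418, 454 and 424 at day 5, so that it was higher than in controls at day 4 (1.06 ± 0.27, not called with only the 2 groups in the model) and lower at day 5 (-1.31 ± 0.27), and the 2 effects differed by -2.37 ± 0.38 (adjusted p = 6.17e-05). larp, the La-related protein that binds TOP messengers, was higher with tumours at both days (0.58 ± 0.19 and 1.97 ± 0.20), although at day 4 its call was lost with library totals only and in 5 of the 8 fits that left out a library. S6k, a kinase under TOR (1.14 ± 0.12), and REPTOR, a transcription factor that TOR inhibits (1.61 ± 0.28), were also higher at day 5. Sesn, a stress-responsive inhibitor of TOR, rose in controls from day 4 to day 5 (2.10 ± 0.22).

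Of 5 transcription factors tied to ribosomal protein promoters or to Myc, 0 were called at day 4 by edgeR and 0 by DESeq2, while 1 was lower with library totals only. At day 5 1 was higher and 1 lower, and in controls 1 rose and 2 fell, near the shares of all tested genes (26.7% and 28.2%, then 25.8% and 29.2%). At day 5 Myc was higher with tumours, at 11.7, 18.6, 21.03 and 14.7 against 30.3, 37.2, 36.1 and 38.98 CPM (1.11 ± 0.26), and Mnt, which opposes Myc, was lower (-0.87 ± 0.24, lost without the libraries rich in gut markers). In controls Myc fell from day 4 to day 5 (-1.17 ± 0.26), as did M1BP (-0.50 ± 0.10), which binds the core promoters of ribosomal protein genes in Drosophila, while Trf2, a TBP-related factor used at the same promoters, rose (0.48 ± 0.12). These signs were the same after RLE scaling, with DESeq2 and with library totals only.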

How the data were processed

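Per the labels, total RNA of the fat body (RNeasy Mini, Qiagen) was sequenced as 150 bp paired-end reads on an Illumina HiSeq. Embryos had been collected within 3 h. The deposited table holds whole-number read counts per gene, not normalized, for 17698 FlyBase genes in 24 libraries; per the submitters' processing notes STAR 2.5.4a and the build BDGP6 are named, in roles not stated, while no source used here gives the counting program, the annotation release or whether strand was used. Without strand, reads of a gene and its antisense neighbour cannot be told apart. Nothing says which libraries came from separate crosses, so p-values measure the spread between pools of larvae.

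Symbols came from the name table (17560 of 17698 identifiers matched) and exon overlaps from Ensembl's BDGP6.54 annotation. Counts were filtered with filterByExpr, scaled by TMM and fitted with edgeR 4.0.16 (limma 3.58.1, R 4.3.3) with the robust quasi-likelihood test, all 6 groups in 1 model and Benjamini-Hochberg adjustment over 8707 genes. A second fit used the summed counts of the 92 genes as library size. The summed share was tested over libraries with a two-sided exact permutation test in scipy 1.17.1. Intervals and floors cover counting error only. The scripts were tested on simulated data. Alternatives were RLE scaling, DESeq2 1.42.0, no low-count filter, TMM without the set or without the 20 most abundant genes, library totals only, only the groups compared, a replicate block, each library left out, and, added after seeing the data, leaving out 2 control libraries with salivary gland markers or 5 libraries with gut markers.

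Genes named with values are the duplicated and -like genes, sta, the stalk and ubiquitin-fusion genes, the 3 highest and 3 lowest of a comparison, those not called where most were, the 3 largest called changes each way within the set, and up to 4 called genes of each other list. The genes and lists were chosen with earlier results of these data known. RpS12 was not analysed here.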

Additional observations from a re-analysis of the deposited data

Results flagged for a closer look

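Among groups of 4 libraries, 129 sets of values with at least 20 summed counts were screened (25 named genes and the summed share), and 13 held a library whose gap to the nearest other exceeded Dixon's 95% critical value as a share of the group's range; chance flags about 1 in 20. Replicate 1 of tumour day 5 was the lowest of its group in the summed share, at 10.3%, and stood highest for 6 minor paralogues, with 1.92 CPM of RpL10Aa, 9.68 of RpL22-like, 2.53 of RpL37-2, 8.76 of RpS5b, 1.32 of RpS10a and 5.12 of RpS19b. Its testis markers were at 117.7 per 1000000 counts, and their part in these values was not tested.

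Replicate 2 of tumour day 5 was highest for RpL24-like (93.9 CPM), RpL22 (1539.7 CPM) and RpS3A (1694 CPM). RpLP0-like was highest in replicate 3 of control day 5 (22.9 CPM), RpS29 in replicate 1 of control day 4 (1102 CPM) and RpL10 in replicate 3 of tumour day 4 (3591 CPM).

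The tumour effect was larger at day 5 than at day 4 in 43 genes by the test of the difference. Among the named genes this difference was 0.83 for RpLP0, 0.86 for RpL22 and 5.94 for RpS5b on the log2 scale. That of RpS5b fell to 3.55 without replicate 1 of tumour day 5 (adjusted p = 0.0555, edgeR).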

How the results depend on the processing

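Library totals only gave 47 called genes at day 4 and 79 for the difference of the tumour effects, 1 lower against 48 higher from tumour day 4 to day 5, 1 lower against 22 higher from tumour day 5 to day 8, and 0 from day 8 to day 11, as did no low-count filter and leaving out the gut-rich libraries. With only the groups compared, 42 were called at day 4 and 10 lower from tumour day 4 to day 5; RLE scaling gave 12 and DESeq2 17 there. Without the gut-rich libraries 9 were called for the difference and 23 lower from day 5 to day 8. Leaving out single libraries gave 8 to 41 lower from tumour day 4 to day 5 and 0 to 1 from day 8 to day 11. With library totals only, RpL11 (0.23), RpL17 (0.23), RpS23 (0.24), RpS16 (0.26), RpLP0 (0.14), RpS14b (0.36) and eEF1alpha1 (0.068) were higher at tumour day 8 than at day 5. Relative to the set, day 4 gave 1 called gene with only the groups compared and 2 to 6 with a library left out. Day 5 gave 12 with no filter, 11 with only the groups compared and 7 without the gut-rich libraries. The difference of effects gave 6 with no filter, 7 with only the groups compared, 7 without the salivary-rich controls, 4 without the gut-rich libraries and 7 to 13 with a library left out. Controls from day 4 to day 5 gave 8 with no filter, 7 with only the groups compared and 7 without the gut-rich libraries. Without the gut-rich libraries, tumour day 4 to day 5 gave 10 and day 5 to day 8 gave 5, where no filter gave 10. The summed share changed by -3.28 points from tumour day 5 to day 8 and -1.08 from day 8 to day 11 without the 20 most abundant other genes, and as a share of all counts the change from day 8 to day 11 lay between -0.037 and 0.711 with a library left out. The cause of these changes was not tested. Of the other values of named genes, 3234 kept direction and call, 204 lost the call and 24 gained it.

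Replicate numbers did not pair the libraries: over 60 same-numbered pairs the correlation of deviations from the group means ran from -0.30 to 0.51, and 17 exceeded 0.1, while 6 of 24 libraries correlated best with their own number. With the replicate block, 78 genes were higher at day 4 and 82 at day 5, 43 had a larger effect at day 5, 81 fell in controls, and 27, 62 and 1 fell over the tumour course. Relative to the set the block gave 2, 15, 11, 12, 18, 16 and 0 calls in the order of the comparisons.

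The minor paralogues have too few counts for narrow intervals. Bulk counts do not separate the cell types of the dissected tissue, no control of days 8 and 11 was analysed here, and the counts of RpS14a and RpS14b and of the 31 genes with shared exon bases are uncertain.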
